A study of Mus musculus with 6 samples.

Results

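The POU domain family was followed in sorted dopaminergic neurons through Pou3f1, Pou3f2, Pou3f3, Pou3f4, Pou2f1, Pou2f2, Pou6f1 and Pou4f1. These genes were picked by symbol, 8 of the 23337 symbols in the table, and all 8 held reads. The family was put forward because of Pou3f2, which had already been seen to be higher in Sox6+ neurons, so the difference between Sox6+ and Sox6- neurons is described here and is not an independent test of it.

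POU factors are transcription factors that grip DNA with a pair of linked domains, the POU-specific domain and the POU homeodomain, and many recognise the octamer element. Class III members (Pou3f1 to Pou3f4) act mainly in the developing and adult nervous system, and Pou3f2 is known for its part in neuron production and in turning fibroblasts into neurons together with other factors such as Myt1l. Class II members (Pou2f1 and Pou2f2) are best known from general and lymphocyte gene control, and Pou4f1 from sensory and habenular neurons.

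The neurons came from adult C57BL/6 mice, from the SNc (substantia nigra pars compacta), which supplies dopamine to the dorsal striatum. All mice carried Sox6-FSF-Cre, Th-2A-Flpo and RC-Frepe, in which Flpo made in Th-expressing cells and Cre made in Sox6-expressing cells decide the reporter colour, so neither group is free of the alleles. Sox6+ neurons were sorted by GFP and Sox6- neurons by mCherry, with 3 libraries in each group, numbered 103, 825 and 1211 in both. The colour records recombination, which can outlast Sox6 expression, and whether the libraries stem from separate animals is not stated, so p-values reflect only the spread among these samples, which may be technical.

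The libraries held between 10397924 and 12952768 reads in genes and between 13429 and 15043 genes with a read. Sox6 lay at 840.5, 461.2 and 389.0 normalized reads in Sox6+ libraries 103, 825 and 1211, against 103.6, 18.1 and 36.2 in the Sox6- libraries, so the sort matched its labels. Of 12 markers of dopaminergic neurons, all had a read in 5 of the 6 libraries, and 11 had one in Sox6- library 103, where Lmx1b was at 0. Their summed level was 102840.0, 200297.9 and 173738.9 in the Sox6+ libraries, against 42674.7, 129079.3 and 37891.3 in the Sox6- libraries. Th, Ddc, Slc6a3 and Slc18a2 made most of it. The mean of Lmx1a was instead lower in Sox6+ neurons (107.16 against 164.68), as was that of En2 (178.97 against 185.72). All other markers on this list had a higher mean in Sox6+ neurons, though Nr4a2 by only 1.12-fold. Sox6+ library 825 stood apart from the rest: 11 markers of microglia and macrophages summed to 28338.7 there, against 15.1 to 42.5 in the others. Lyz2 made 26494.06 of that sum, and 7 of the 11 had a read there, while Aif1, C1qa, C1qb and Tmem119 were at 0. Markers of the oligodendrocyte lineage summed to 1972.2 in that library, against 123.3 to 247.6 in the others. Mbp made 1943.76 of it, and 4 of the 9 listed had a read there. Markers of B lymphocytes had reads only in that library. In bulk samples, fewer cells of a type and less RNA per cell cannot be told apart.

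The members are close relatives in sequence, which bears on how far reads can be assigned to one of them. A stretch of their conserved POU-specific domain is shown for the class III members and Pou2f2, the genes on which the account below turns, as the reference coding strand of GENCODE M21 on GRCm38. In Pou3f2 the capitals mark the 38-base run shared with Pou3f1, the longest identical coding stretch between any pair of the 8 genes, and in the other genes they mark bases that differ from Pou3f2.
Pou3f2: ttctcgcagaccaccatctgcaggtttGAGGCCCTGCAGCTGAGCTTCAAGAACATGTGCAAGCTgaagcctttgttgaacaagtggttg
Pou3f1: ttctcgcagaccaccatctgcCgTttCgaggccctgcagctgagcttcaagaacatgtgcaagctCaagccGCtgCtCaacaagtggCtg
Pou3f3: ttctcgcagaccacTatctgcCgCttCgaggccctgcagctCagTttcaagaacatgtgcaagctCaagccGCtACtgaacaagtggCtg
Pou3f4: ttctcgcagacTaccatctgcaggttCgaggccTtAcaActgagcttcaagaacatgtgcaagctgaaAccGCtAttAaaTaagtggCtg
Pou2f2: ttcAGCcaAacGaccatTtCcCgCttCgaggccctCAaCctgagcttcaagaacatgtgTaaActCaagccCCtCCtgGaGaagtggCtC
The windows lie at chr4:22487130-22487219 (minus strand) for Pou3f2, chr4:124658562-124658651 (plus) for Pou3f1, chr1:42698199-42698288 (plus) for Pou3f3, chrX:110815143-110815232 (plus) for Pou3f4 and chr7:25097403-25097492 (minus) for Pou2f2. Of the 90 bases, 81 were identical to Pou3f2 in Pou3f1, 78 in both Pou3f3 and Pou3f4, and 66 in Pou2f2. Pou2f1 also matched at 66, and Pou6f1 and Pou4f1, whose windows are not printed, matched at 58 each. Among the class III genes, the longest identical coding run ran from 23 bases (Pou3f3 with Pou3f2 or Pou3f4) to 38. The read length is not given in the sources used here, so reads that fall inside such runs were not separated further.

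The members' level per length put Pou3f2 first in both groups. Per kilobase of annotated exon, Pou3f2 averaged 177.42 ± 48.07 normalized reads in Sox6+ neurons, and 49.88 ± 11.42 in their Sox6- counterparts (SD, n = 3 each). Pou3f1 came next in both, at 62.68 ± 26.91 in Sox6+ neurons and 27.04 ± 23.13 in Sox6- neurons. In Sox6+ neurons the lowest Pou3f2 library (141.65) lay above the highest Pou3f1 library (92.01), whereas in Sox6- library 825 Pou3f1 (53.11) lay above Pou3f2 (50.83), so there the order of the pair was within their spread.

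Pou4f1 (21.19 ± 36.7), Pou3f4 (20.86 ± 16.35), Pou6f1 (17.49 ± 3.46) and Pou3f3 (14.72 ± 2.4) followed in Sox6+ neurons, and each overlapped its neighbour in the order. Pou2f1 at 2.65 ± 0.86 and Pou2f2 at 0.94 ± 0.23 came last there, and neither Pou3f3 with Pou2f1 nor Pou2f1 with Pou2f2 overlapped. In Sox6- neurons the order after Pou3f1 was Pou3f4 (20.56 ± 7.1), Pou6f1 (13.9 ± 6.91), Pou4f1 (7.47 ± 8.71), Pou3f3 (6.38 ± 3.71), Pou2f2 (4.96 ± 0.99) and Pou2f1 (4.26 ± 2.1), with every neighbour overlapping. The 8 genes together summed to 331.5, 307.3 and 315.0 per kilobase in Sox6+ libraries 103, 825 and 1211, against 124.7, 151.7 and 127.0 in the Sox6- libraries. Pou3f2 made 47.8%, 46.1% and 73.7% of that sum in Sox6+ libraries, against 48.7%, 33.5% and 29.9% in Sox6- libraries, so its share was alike for number 103 in both groups.

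**Figure D1:**
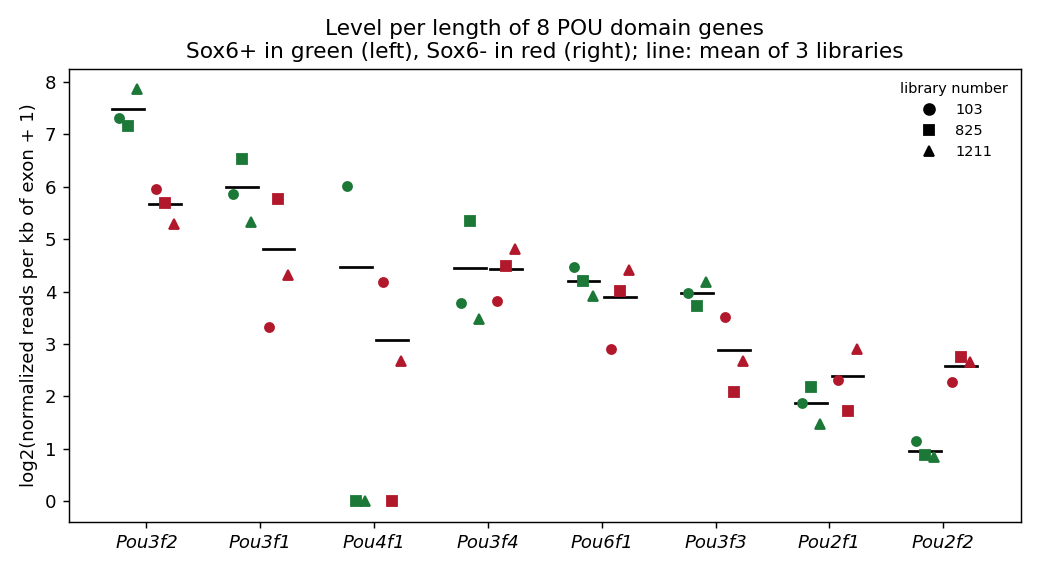
Level per length of the 8 POU domain genes, as log2(normalized reads per kilobase of exon + 1), with each point a library and each line the log2 of the mean of 3 libraries plus 1. Pou3f2 stands highest in both groups, at means of 177.42 in Sox6+ and 49.88 in Sox6- neurons before the log, and Pou2f1 and Pou2f2 stand lowest.

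Pou3f2, the member that was called in the fit over all genes, held 885.90, 791.39 and 1296.52 normalized reads in Sox6+ libraries 103, 825 and 1211, against 339.61, 283.99 and 212.38 in the Sox6- libraries. All 3 Sox6+ libraries were above all 3 Sox6- libraries, and number 1211 gave both the highest Sox6+ and the lowest Sox6- value. Means were 991.27 ± 268.55 (SD, n = 3) in Sox6+ neurons and 278.66 ± 63.78 (SD, n = 3) in Sox6- neurons, that is, a 3.56-fold ratio resting on 2996 against 865 recovered reads.

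Within a number the Sox6+ library held 2.61, 2.79 and 6.10 times the Sox6- library for 103, 825 and 1211. The difference on the log2(value + 1) scale was 1.82 ± 0.26 (SE). The gene was picked with a difference already seen, and its adjusted p was 0.0339 (limma, Benjamini-Hochberg over all tested genes). That call was lost when Sox6+ library 1211 (adjusted p 0.109 with limma), Sox6- library 825 (0.056) or Sox6- library 1211 (0.173) was left out, and the limma adjusted p was 0.0858 without both libraries numbered 825 and 0.584 without both numbered 1211. With edgeR on the recovered reads the adjusted p was 0.0697, and with limma without trend or robust moderation it was 0.162. Without Sox6+ library 825, which stood apart in Lyz2 and other markers, the log2 difference was 1.97 and the adjusted p 0.0409 (limma). The authors' deposited table gives Pou3f2 a log2 fold change of 1.83 once turned to Sox6+ over Sox6-, with an adjusted p of 1.9e-07.

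Pou3f2 is a single-exon gene on the minus strand of chromosome 4, spanning 22482780 to 22488366 in GRCm38. The dopaminergic marker sum given above also stood higher in Sox6+ neurons, with overlap of the groups. A list of 8 GABAergic markers summed to 7070.4, 14.8 and 2340.8 in Sox6+ libraries and to 15561.6, 4460.3 and 12423.0 in Sox6- libraries, with overlap. Gad1 and Gad2 were at 0 in Sox6+ library 825 and Tal1 was at 0 in all 6. Sst alone held 3958.27, 3164.19 and 5814.1 in Sox6- libraries, against 1.97, 0 and 0 in Sox6+ libraries, and Npy had reads only in Sox6- libraries. Gad1, Gad2 and Slc32a1 overlapped between the groups, and the Pvalb mean was higher in Sox6+ neurons (423.06 against 84.96). The 3 glutamatergic markers summed to 999.3, 162.8 and 764.2 in Sox6+ libraries, against 2607.5, 2262.9 and 4815.2 in Sox6- libraries, with no overlap. Most of that was Slc17a6, a vesicular glutamate transporter, at 873.07, 162.83 and 764.24 in Sox6+ and 2496.23, 2236.69 and 4815.25 in Sox6- libraries, while Slc17a8 was at 0 in all Sox6+ libraries. The part of these other signals in the Pou3f2 difference was not tested.

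**Figure D2:**
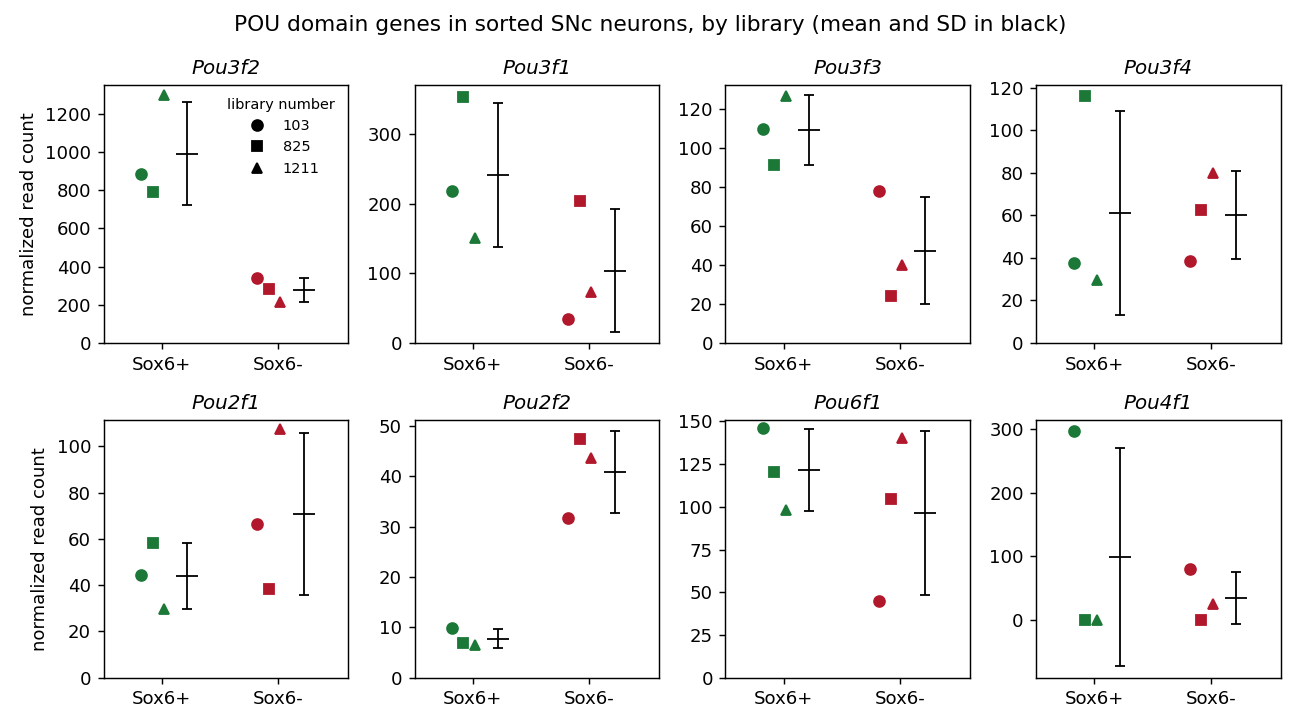
Normalized read counts of the 8 POU domain genes in each library, with mean and SD of 3 libraries in black and marker shapes for library numbers 103, 825 and 1211. Pou3f2 separates into 791.39 to 1296.52 in Sox6+ and 212.38 to 339.61 in Sox6- libraries, while Pou4f1 is above 0 in library 103 of both groups and in Sox6- library 1211.

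The other class III members differed in how they stood to Pou3f2. Pou3f1, which times myelination in Schwann cells, held 219.01, 354.13 and 150.63 normalized reads in Sox6+ libraries, against 34.54, 204.43 and 73.27 in Sox6- libraries. Number 825 was highest in both groups, as it was for Th, and the highest Sox6- library exceeded the lowest Sox6+ library. Its log2 difference was 1.48 ± 0.618 (SE). Leaving out Sox6+ library 825 gave 1.16, whereas omitting Sox6- library 103 gave 0.88 and omitting Sox6- library 825 gave 2.15. The gene is a single exon on the plus strand of chromosome 4 (124656807 to 124660655). The opposite-strand gene Gm2164 (124528924 to 124657169) overlaps its start and was not matched to a measured symbol. Whether exons of the pair overlap was not worked out.

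Pou3f3, which acts with Pou3f2 in cortical neurons, held 109.50, 91.10 and 126.60 normalized reads in Sox6+ libraries, against 77.71, 24.17 and 39.88 in Sox6- libraries. These groups did not overlap, and their log2 difference was 1.33 ± 0.509 (SE). Pou3f3 is a single-exon gene on the plus strand of chromosome 1 (42695768 to 42703176), and the long non-coding gene 2610017I09Rik (Pantr1) starts 926 bases away on the opposite strand. Another annotated gene on the same strand, from 42694925 to 42744791, spans all of Pou3f3 and was not matched to a symbol in the table. Whether its exons overlap those of Pou3f3 was not worked out, so reads of the pair may not be told apart here. The opposite-strand 2610017I09Rik held 158.83, 193.58 and 203.3 normalized reads in Sox6+ libraries, against 110.33, 77.54 and 168.79 in Sox6- libraries, with overlap.

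Pou3f4, known for its role in the inner ear and striatum, held 37.49, 116.15 and 29.57 normalized reads in Sox6+ libraries and 38.37, 62.44 and 79.76 in Sox6- libraries. It averaged 61.07 ± 47.86 (SD, n = 3) in Sox6+ and 60.19 ± 20.78 (SD, n = 3) in Sox6- neurons, a log2 difference of -0.18 ± 0.618 (SE). Over the other settings tried the difference ran from -0.77 (without Sox6+ library 825) to 0.43 (without both libraries numbered 1211). Pou3f4 is a single-exon gene on the plus strand of chromosome X, from 110814280 to 110817207.

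Pou2f2 showed the widest ratio in the other direction, at low level. It held 9.87, 6.83 and 6.47 normalized reads in Sox6+ libraries, against 31.66, 47.33 and 43.59 in Sox6- libraries, which do not overlap. The means were 7.72 ± 1.86 in Sox6+ and 40.86 ± 8.19 in Sox6- neurons (SD, n = 3 each), so Sox6- neurons held 5.29 times as much, from 23 against 127 recovered reads. This log2 difference of -2.26 ± 0.77 (SE) had an adjusted p of 0.31 with limma and was not called.

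Markers of B lymphocytes, the cells in which Pou2f2 is best known, were above 0 only in Sox6+ library 825 (4 of 5 markers, sum 534.0, Pax5 at 0), where Pou2f2 was at 6.83. Without that library the Pou2f2 log2 difference was -2.20. Pou2af1, the lymphocyte coactivator of class II factors, was at 0 in all 6 libraries. Pou2f2 occupies the minus strand of chromosome 7 between 25087344 and 25179726, and the opposite-strand gene D930028M14Rik inside it shares 0 exon bases with it.

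Pou2f1, the broadly expressed class II factor, held 44.39, 58.07 and 29.57 normalized reads in Sox6+ libraries, against 66.20, 38.27 and 107.58 in Sox6- libraries. The groups overlapped, and the log2 difference was -0.60 ± 0.552 (SE), or 0.01 without both libraries numbered 1211. Pou2f1 spans 165865154 to 166002678 of chromosome 1 on the minus strand. Its exons share 3007 bases with Cd247 on the opposite strand, and Cd247 held reads only in Sox6+ library 825, at 26.19. Pou6f1, a brain-expressed member, held 146.01, 120.70 and 97.96 normalized reads in Sox6+ libraries and 45.09, 104.73 and 140.04 in Sox6- libraries, with overlap and a log2 difference of 0.45 ± 0.468 (SE), or -0.01 without Sox6- library 103. The gene spans 100575318 to 100599984 of chromosome 15 on the minus strand. Inside it lies the opposite-strand gene Gm27209 (100595416 to 100597293), which was not matched to a measured symbol and whose exon overlap was not worked out. The library kit keeps strand, but the strand setting of the counting is not given in the sources used here, so reads of genes that overlap on opposite strands may not be told apart.

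Pou4f1 was decided by single libraries. It held 296.94 normalized reads in Sox6+ library 103 and 0 in Sox6+ libraries 825 and 1211, against 79.63, 0 and 25.04 in Sox6- libraries 103, 825 and 1211. A count of 0 allows up to 3 reads in a library, for counting error only. Means were 98.98 ± 171.44 (SD, n = 3) in Sox6+ and 34.89 ± 40.72 (SD, n = 3) in Sox6- neurons, while the log2 difference was -0.94 ± 2.5 (SE), of the opposite sign. Fits on the recovered reads without a replicate block gave 1.49 with edgeR and 1.5 with DESeq2, and with the block edgeR gave -0.73, so no direction is given. Without Sox6+ library 103 the limma log2 difference was -3.68, and it was 0.43 without Sox6+ library 825 or 1211 and 0.39 without Sox6- library 103. Pou4f1 lies on the minus strand of chromosome 14, spanning 104461676 to 104467999.

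Gpr151, a receptor of habenular neurons, was also highest in the libraries numbered 103, at 5883.62, 0 and 11.09 in Sox6+ libraries and at 2215.14, 7.05 and 6.49 in Sox6- libraries. Chrnb4, a nicotinic receptor subunit of the habenula, held 733.97, 0 and 86.87 in Sox6+ libraries and 262.86, 19.13 and 68.63 in Sox6- libraries. Tac1 and Tcf7l2, also on the list, were instead highest in Sox6- library 1211, at 15718.19 and 2376.09. Of 6 habenular markers, 6, 2 and 4 had a read in Sox6+ libraries 103, 825 and 1211, and all 6 had one in each Sox6- library. Their sum was 12455.8, 1465.5 and 1901.8 in Sox6+ libraries, against 9892.8, 3398.8 and 18860.3 in Sox6- libraries. Different genes carried it: Chrna3 made most of it in Sox6+ libraries 825 (1391.49) and 1211 (1679.11), and Tac1 in Sox6- library 1211. Chrna3 was higher in all Sox6+ libraries than in any Sox6- library, unlike Pou4f1. The part of these markers in the Pou4f1 values was not tested.

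**Figure D3:**
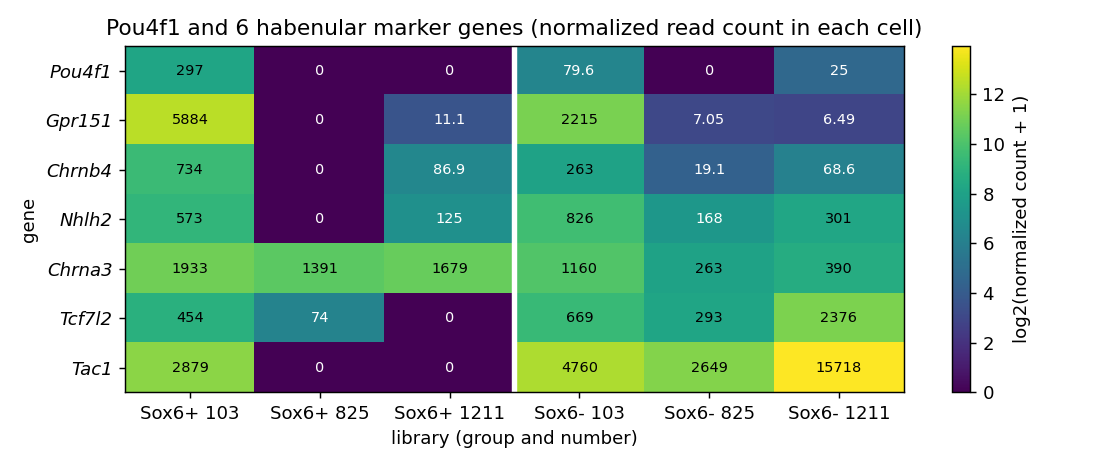
Normalized read counts of Pou4f1 and 6 habenular marker genes in each library, coloured by log2(count + 1). Pou4f1 and Gpr151 are highest in the Sox6+ and Sox6- libraries numbered 103, at 296.94 and 5883.62 in Sox6+ library 103.

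In the fit over all genes, 8 of 8 members passed the filter on low values, and 1 (Pou3f2) was called higher in Sox6+ neurons and 0 lower (limma, adjusted p under 0.05). Over all 13175 tested genes, limma called 40 (0.304%): 17 above 0 (0.129%) and 23 below (0.175%). At an unadjusted p under 0.05 with limma, 4 members passed, Pou3f1, Pou3f2 and Pou3f3 with differences above 0 and Pou2f2 below, while 1500 of all tested genes (11.4%) passed the same limit. EdgeR on the recovered reads called none of the 8 in either direction, and DESeq2 called Pou3f2. The adjusted p of the other 7 members ran from 0.31 (Pou2f2) to 0.932 (Pou3f4) with limma.

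The groups did not overlap for 3 of the 8 members, Pou3f2 and Pou3f3 above and Pou2f2 below, against 17.0% of all tested genes, 7.86% above and 9.19% below. The median log2 difference of the members was 0.14, with 4 of 8 above 0, beside a median of -0.02 over all tested genes. Because the members were picked with this comparison known, nothing is read from these shares.

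**Figure D4:**
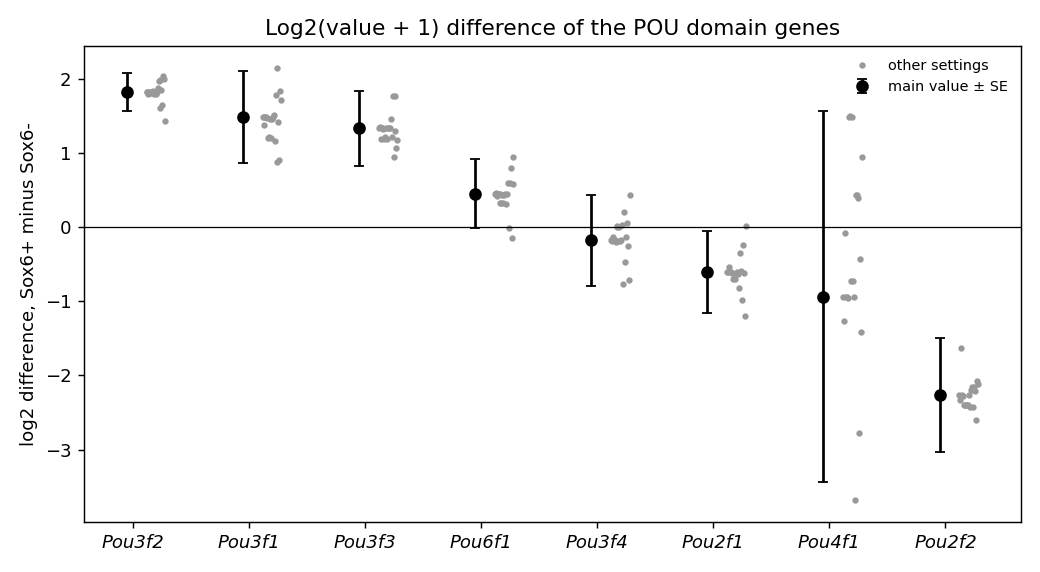
Log2(value + 1) difference of each POU domain gene, Sox6+ minus Sox6-, with its standard error in black and the values under other settings in grey. Pou3f2, Pou3f1 and Pou3f3 stay above 0 and Pou2f2 below 0 under each setting run, while Pou3f4, Pou2f1, Pou6f1 and Pou4f1 have settings on both sides of 0.

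Among further POU genes in the table, Pou5f2 was below the filter and held 0, 19.36 and 5.54 normalized reads in Sox6+ libraries, against 0, 3.02 and 4.64 in Sox6- libraries. Pou2f3 (11.13) and Pou4f2 (2.78) had reads only in Sox6- library 1211, and Pou1f1 (0.96) only in Sox6- library 103. Pou4f3 and Pou5f1 were at 0 in all 6.

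The genes around these factors gave no call with limma at an adjusted p under 0.05 in any of 4 lists, each of which had 1 gene with an unadjusted p under 0.05, a limit that 11.4% of all tested genes passed. On the recovered reads, edgeR also called 0 and DESeq2 called 1, Crh. Among partners of POU factors, 4 of 13 were tested. The smallest p was that of Myt1l, which reprograms cells together with Pou3f2. Myt1l held 1103.92, 877.94 and 822.46 normalized reads in Sox6+ libraries, against 1181.92, 1223.58 and 1392.08 in Sox6- libraries, with a log2 difference of -0.45 ± 0.174 (SE) and an adjusted p of 0.387 (limma). For Sox4 the log2 difference was -0.72 ± 0.505 (SE), with overlapping groups.

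All 5 subunits of SNAPc, the small nuclear RNA activating complex that Pou2f1 assists, were tested. Snapc5 held 780.34, 811.89 and 816.91 normalized reads in Sox6+ libraries, against 613.02, 681.78 and 467.43 in Sox6- libraries, a log2 difference of 0.47 (adjusted p 0.413, limma). Snapc2 and Snapc1 had log2 differences of -0.39 and 0.20.

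Of 12 genes known as targets of class III factors, 6 were tested. Crh, which encodes corticotropin-releasing hormone and is a known hypothalamic target of Pou3f2, held 3.95, 0 and 0 normalized reads in Sox6+ libraries, against 10.55, 273.92 and 179.00 in Sox6- libraries. Its log2 difference was -5.61 ± 1.42 (SE) with an adjusted p of 0.173 (limma), whereas DESeq2 on the recovered reads called it. Mitf, the melanocyte regulator, held 23.68, 100.21 and 32.34 in Sox6+ libraries and 37.41, 1.01 and 4.64 in Sox6- libraries, and the groups overlapped. Dab1, of the reelin pathway, had a log2 difference of -0.71 ± 0.487 (SE).

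Of 7 partners and targets of Pou4f1, 5 were tested. Isl1, a LIM homeodomain factor that acts with Pou4f1 in sensory neurons, held no reads in the Sox6+ libraries, against 76.75, 0 and 459.08 normalized reads in Sox6- libraries, with an adjusted p of 0.423 (limma). Of the other tools, edgeR called Isl1 only with the replicate block and robust moderation together. Snap25, a synaptic fusion protein, was at 0.34 ± 0.176 and Bcl2, a survival factor, at 0.81 ± 0.903 (log2 difference ± SE). The median log2 difference of the tested genes was -0.58 in the partner list, 0.20 in the SNAPc list, 0.37 in the class III target list and 0.15 in the Pou4f1 list, beside -0.02 over all tested genes.

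The genes whose log2(value + 1) followed Pou3f2 most closely over the 6 libraries, among 9745 compared, were D19Ertd737e (Pearson r 0.995), Cox16 (0.991), Vps29 (0.990), Tmem117 (0.989) and Rhoa (0.987). These are descriptions over 6 points that fall into the same 2 groups and share their libraries. D19Ertd737e held 1698.79, 1468.92 and 2532.98 normalized reads in Sox6+ libraries, against 823.12, 763.35 and 565.74 in Sox6- libraries, with library 1211 again the highest in Sox6+ and the lowest in Sox6- neurons. Vps29 held between 5239.42 and 5907.83 in Sox6+ and between 4049.19 and 4558.83 in Sox6- libraries, a narrower spread than that of Pou3f2.

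The octamer ATGCAAAT, searched on both strands, was in 0 of the 9 RefSeq promoter windows (GRCm38.p6) of the 7 members with an entry, and in 570 of 32851 windows of all genes (1.74%). Each window ran from 250 bases before to 50 bases after a gene's start. The letters are not in these windows, and nothing is drawn from that about POU factor binding.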

How the data were processed

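Neurons were dissociated with papain, RNA was isolated with mirVana and stranded TruSeq mRNA libraries were made, per the labels' protocols. FastQC, cutadapt, STAR, HTSeq, DESeq2 and builds mm10/GRCm38 appear, without versions or settings, in the submitters' processing notes. One table was deposited: normalized signal per library beside the authors' own DESeq2 output, namely a log2 fold change (Sox6- over Sox6+) with its error, a test score, and p-values raw and adjusted. In the deposited signal, 100.0% of values above 0 were whole multiples of a step per library (within 0.01), from 0.9241 to 1.1387, so read counts were recovered.

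The table was read by symbol, and 6009 of its 23337 symbols were at 0 in every library. The 13175 genes averaging 10 or more were tested with limma 3.58.1 (trend and robust moderation, 2-sided) on log2(value + 1), a scale that understates changes of low genes, without a block, adjusted by Benjamini-Hochberg with a threshold of 0.05. Alternatives included a block for library number, other pseudocounts (0.5 and 8), filters at a mean of 1 and 50, TMM, limma without trend or robust moderation, edgeR 4.0.16 and DESeq2 1.42.0 on recovered reads, the longest transcript as length, and leaving out each library. EdgeR's robust moderation was switched on after its calls without it had been seen, and both are given. R 4.3.3, Python 3.11.15, numpy 2.4.6, pandas 2.3.3 and matplotlib 3.10.9 were used. The fit was also run on simulated counts with changes placed only in genes averaging 50 or more, and its outcome is not reported here. Positions, lengths and sequences come from GENCODE M21 (GRCm38).

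The members and gene lists were chosen with earlier results of these data known. Named were the 8 members, other POU genes with a read, the 3 list genes of smallest p, the 5 genes most like Pou3f2 (mean of at least 50, no predicted genes, Rik clones or pseudogenes), neighbours within 10 kb, and the sort checks; some genes that this rule names are not reported here. Values of habenular, microglial and macrophage, oligodendrocyte-lineage, GABAergic and B lymphocyte genes were added as markers. Libraries correlated at 0.796 to 0.92 within groups and 0.754 to 0.92 between groups.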

Additional observations from a re-analysis of the deposited data

How the results depend on the processing

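Pou3f2 was higher in Sox6+ neurons under all 21 alternative settings, with a log2 difference from 1.43 (without both libraries numbered 1211) to 2.04, while its adjusted p ran from 2.94e-07 (DESeq2) to 0.584 (limma, without number 1211). It passed the threshold in 12 of the 21. Members called higher numbered 0 with edgeR (adjusted p of Pou3f2 0.0697), with edgeR without robust moderation (0.0902), with edgeR without robust moderation but with the replicate block (0.0672), and with limma without trend or robust moderation (0.162), and 0 to 1 when libraries were left out. No member was called lower under any setting.

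Over all genes, 17 were higher and 23 lower. The counts were 134 and 133 with limma and the replicate block, 34 and 35 at a pseudocount of 8, 30 and 36 at a mean of at least 1, 1 and 5 with edgeR, 171 and 216 with DESeq2, and 63 and 57 with edgeR and the replicate block. EdgeR without robust moderation gave 0 and 1, and 27 and 30 with the replicate block added; its robust moderation was chosen after these calls had been seen. Limma without trend or robust moderation gave 4 and 20. Leaving out libraries gave 0 to 60 higher and 1 to 102 lower. Leaving out a number in both groups was also chosen after seeing the data.

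Pathway list genes called numbered 0, and 1 with DESeq2 (Crh), 1 with edgeR and the replicate block (Isl1, not called without robust moderation), and 0 to 1 when libraries were left out. With group means removed, same-number correlations between the groups were 0.268 for 103, 0.172 for 825 and 0.079 for 1211. Those between different numbers ran from -0.236 to 0.024, so every library correlated best with its own number. The main fit used no block for number. With the block in limma Pou3f2 had an adjusted p of 0.011, and in edgeR 0.0444. With the longest transcript as length, 5 of 8 members kept their rank in Sox6+ and 8 of 8 in Sox6- neurons.

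Depth limits Pou2f2, with 23 reads in Sox6+ libraries, and the other POU genes below the filter. Without number 103 Pou4f1 fell below the filter, and Pou2f2 did so at a mean of 50, so neither has a value there.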
